A study of Mus musculus with 12 samples.

Results

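Transcripts of 47 cytosolic ribosomal protein genes were compared among 4 groups of cerebellar granule neuron (CGN) samples. Genes were taken by symbol: those starting with Rpl or Rps and a digit, and Rpsa, with kinases, pseudogenes and 1 further small subunit gene left out. Of 18193 genes measured, 55 symbols started this way, and 47 remained after 6 kinases, 1 pseudogene and that gene were removed. They were 23 small subunit and 24 large subunit symbols, of which 40 named core ribosomal proteins. The other 7 were paralogs of core genes (Rpl3l, Rpl7l1, Rpl22l1, Rpl39l, Rps4l, Rps27l) and Rps19bp1, which encodes a protein that binds Rps19 and is not itself part of the ribosome.

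CGNs are excitatory neurons with small cell bodies, found in the cerebellar cortex. Cultures were made from pups of 7 days by the labels and kept for 3 days. The groups were untreated Ifnb+/+, untreated Ifnb–/–, and each genotype with recombinant (r) IFN-β at 100 U/ml for 24 hr, with 3 arrays in each group. Ifnb–/– pups lacked the IFN-β gene (Ifnb1) in every cell, and the labels name no transgene or Cre. The labels give the strain of all groups as B10.RIII, while the methods name B10.RIII or C57BL6 for the line. The labels give the controls as Ifnb+/+, but the methods count both Ifnb+/– and Ifnb+/+ littermates as wild type, so heterozygous controls cannot be told apart here. The question was whether loss of IFN-β, or its addition, altered the RNA of the machinery that makes protein.

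A ribosome holds a small subunit, which reads the mRNA, and a large subunit, which joins amino acids. Most ribosomal proteins are needed in equal number, and most of their mRNAs start with a run of pyrimidines (a terminal oligopyrimidine, or TOP, motif). Through this motif, mTOR signaling and the RNA-binding protein Larp1 set how much of the mRNA is translated, so that ribosomal protein output can alter with little alteration of mRNA level. Array values show mRNA level and not translation. Neurons depend on new ribosomes for growth of neurites and for protein synthesis at synapses.

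The 47 genes lay on 17 chromosomes, with at most 7 on 1 chromosome (chromosome 17). RefSeq promoters (mouse build GRCm38.p6), from 250 bases before to 50 after each annotated start, were matched for 41 of the 47 genes. A run of at least 8 pyrimidines within 25 bases of an annotated start stood in 21 of 41 genes (51.2%), against 22.3% of all 27025 genes with a promoter. The windows below run from 25 bases before the start to 25 bases from it, on the strand of the gene, with the longest pyrimidine run in capitals. Where a gene had several annotated starts, the start with the longest run is shown. Rpl7a and Rpl35 are shown for their long runs, Rps10, Rps2 and Rpl10a as genes that read lower in untreated Ifnb–/– CGNs, Rps24 and Rps25 as genes that did not, and Rpl22 with Rpl22l1 and Rps27 with Rps27l as paralog pairs.
Rpl7a, chr2:26910782-26910831, plus strand: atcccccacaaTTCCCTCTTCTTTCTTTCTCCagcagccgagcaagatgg
Rpl35, chr2:39005107-39005156, minus strand: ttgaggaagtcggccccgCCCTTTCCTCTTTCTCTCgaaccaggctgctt
Rps10, chr17:27635220-27635269, minus strand: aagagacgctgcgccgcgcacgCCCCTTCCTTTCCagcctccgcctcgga
Rps2, chr17:24720038-24720087, plus strand: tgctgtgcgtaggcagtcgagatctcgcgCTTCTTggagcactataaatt
Rpl10a, chr17:28328540-28328589, plus strand: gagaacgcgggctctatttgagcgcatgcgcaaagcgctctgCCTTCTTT
Rps24, chr14:24490653-24490702, plus strand: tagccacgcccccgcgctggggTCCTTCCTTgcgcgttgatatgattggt
Rps25, chr9:44407689-44407738, plus strand: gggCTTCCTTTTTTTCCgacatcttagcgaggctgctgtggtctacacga
Rpl22, chr4:152324411-152324460, plus strand: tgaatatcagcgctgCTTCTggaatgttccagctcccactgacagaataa
Rpl22l1, chr3:28805483-28805532, plus strand: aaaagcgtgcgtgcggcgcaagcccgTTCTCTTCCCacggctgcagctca
Rps27, chr3:90213624-90213673, minus strand: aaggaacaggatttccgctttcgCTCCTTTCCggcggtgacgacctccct
Rps27l, chr9:66946061-66946110, plus strand: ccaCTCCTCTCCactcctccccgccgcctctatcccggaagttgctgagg
The run was 21 bases long in Rpl7a, 18 in Rpl35 and 13 in Rps10. It was 6 bases in Rps2 and 5 in Rpl22, whose paralog Rpl22l1 had 10. RefSeq starts may differ from the starts used in CGNs, so a short run does not mean that a gene has no TOP motif. Nor was every counted run at the annotated start. It began 22 bases before the start in Rps25 (14 bases long) and Rps27l (9 bases long), and 17 bases after it in Rpl10a. The share of genes with a run is therefore not a share of genes with a TOP motif.

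Motifs were searched on both strands of the whole promoter. CCGGAAG, bound by the ETS family, stood in 19 of 41 genes (46.3%) and in 9.93% of all genes. A palindrome of 10 bases with CGCG at its centre stood in 4 genes (9.76%, against 0.525%). AAGATGGC, bound by YY1, stood in 4 genes (9.76%, against 3.19%), and GGGCGG, bound by SP and KLF factors, in 24 (58.5%, against 38.2%). TATAAA stood in 5 genes (12.2%, against 15.7%). The last 3 bases of CCGGAAG can be the first 3 of AAGATGGC, and the reverse complement of CCGGAAG can overlap a pyrimidine run. These matches are descriptions of the reference sequence and not measured sites. Genes with a pyrimidine run near the start had a median log2 difference of −0.08 between untreated Ifnb–/– and Ifnb+/+ CGNs, and genes without it −0.12, with 21 and 20 genes.

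**Figure D1:**
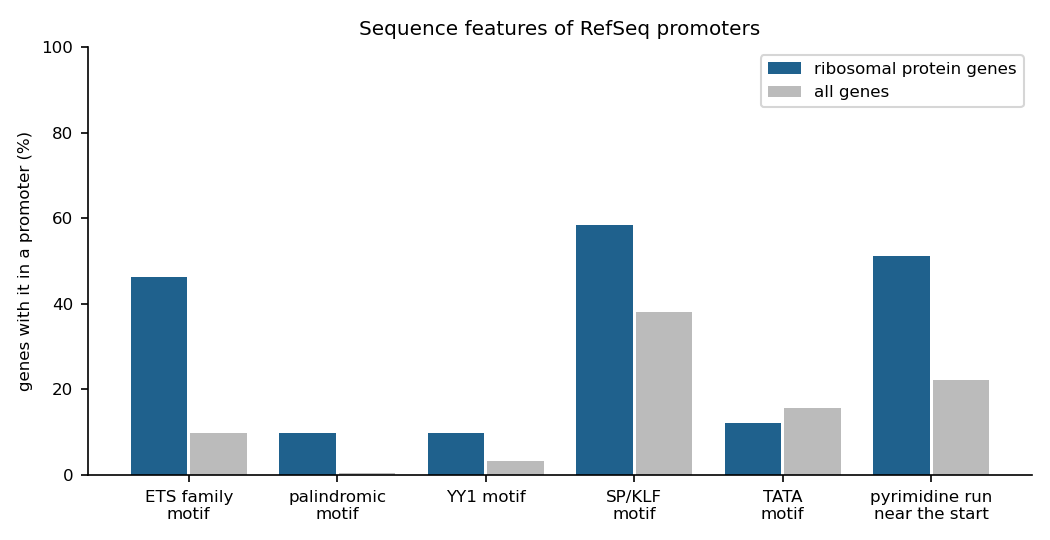
Percent of genes whose RefSeq promoter holds each feature, for 41 ribosomal protein genes (blue) and all 27025 genes (grey). ETS family motifs stood in 46.3% against 9.93%, and pyrimidine runs near the start in 51.2% against 22.3%.

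On the arrays, Ifit1, an interferon-stimulated gene, read between 2.65 and 4.06 in untreated and between 9.36 and 11.44 in treated CGNs (log2 intensity). Ifnb1 read between 2.48 and 3.06 in all 12 arrays, which does not check the genotype. Replicate 1 of untreated Ifnb+/+ stood apart. Over all genes, the median absolute deviation from the gene mean was 0.28 in this array and between 0.10 and 0.16 in the other 11. The granule neuron markers Neurod1 and Zic1 read at least 11.32 and 12.18 in every array. Summed levels of 15 microglia markers ranged from 11.79 to 11.92 (log2) in untreated Ifnb+/+, 11.20 to 11.36 in untreated Ifnb–/–, 10.54 to 11.15 in treated Ifnb+/+ and 10.83 to 11.07 in treated Ifnb–/– CGNs. The proliferation marker Mki67 read 6.98 in replicate 3 of treated Ifnb+/+ and 7.46 in replicate 2 of treated Ifnb–/–, and between 4.19 and 5.2 in the other arrays.

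Of the 47 genes, 32 had a mean of at least 10 over the 12 arrays, as did 2.53% of all genes, and 12 were among the 50 brightest genes. Intensities of different probe sets depend on the probes, and are not compared as levels between genes. Among core genes on bright probe sets were Rps29 (12.57), Rps28 (12.44), Rpl37a (12.44), Rpl38 (12.27), Rps14 (12.26), Rpl13a (12.12), Rps7 (12.04) and Rps4x (12.03). Rps7, Rps28 and Rps29 are among the genes mutated in Diamond-Blackfan anaemia, and Rps14 is the gene lost in the 5q– syndrome. Of the 15 genes under 10, 7 were the paralogs and Rps19bp1, and 8 were core genes. For 6 of these 8, another probe set, which also names pseudogenes or predicted genes, was brighter. For Rps16 it read 11.88 against 1.96, for Rpl39 12.47 against 5.51, for Rpl27a 11.85 against 6.72, for Rps25 11.23 against 6.94, for Rpl14 10.78 against 4.45 and for Rpl12 10.52 against 5.6. The dim probe sets therefore do not give the abundance of these mRNAs. Rpl3l (2.15), a large subunit paralog known from muscle, and Rpl39l (2.66), known from testis, read below 3, like Rps16.

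Values of the ribosomal protein genes varied little. The range over 12 arrays was 0.13 for Rps7 and 0.17 for Rps28, was under 0.5 for 23 of the 47 genes, and reached 1.02 for Rps4l and 1.16 for Rpl22l1. The median SD over 12 arrays was 0.153, against 0.210 for all genes. Among genes whose mean reached 10, it was 0.129 for 32 ribosomal protein genes and 0.186 for all 461 genes. Within groups, the median SD was 0.159 in untreated Ifnb+/+, 0.0616 in untreated Ifnb–/–, 0.126 in treated Ifnb+/+ and 0.136 in treated Ifnb–/–. The low spread of untreated Ifnb–/– arrays was shared with all genes, whose medians were 0.201, 0.0872, 0.171 and 0.154 in the same order. Among genes whose mean reached 10, ribosomal protein genes had the larger median SD in untreated Ifnb–/– (0.0624, against 0.0495 for all). In the other groups they had the smaller one.

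Loss of IFN-β was examined first, in untreated CGNs. Ribosomal protein genes read slightly lower in Ifnb–/– CGNs, with a median close to that of all genes and further below 0 than that of genes as bright, and none passed the test. By limma with Benjamini-Hochberg adjustment over all genes, 0 of the 47 were called at an adjusted p under 0.05, where 0.115% of all genes were. Before adjustment, at p under 0.05, 0 were higher and 10 lower (21.3%), where 8.4% of all genes were higher and 12.8% lower. The median log2 difference was −0.08 for the 47 genes and −0.09 for all genes. Among the 32 ribosomal protein genes whose mean reached 10 it was −0.10, and −0.03 for all 461 genes this bright. The difference was below 0 in 34 of 47 genes (72.3%), where it was in 65.5% of all genes. When each array was centred on its median, it was below 0 in 25 and above 0 in 22 of the 47 genes. Since bulk RNA was measured, fewer cells of a type and less RNA per cell cannot be told apart. The 95% confidence interval of the difference lay within 1.5-fold in either direction in 37 of the 47 genes, as in 57.3% of all genes. It lay within 2-fold in all 47, as in 89.0% of all genes. These intervals hold for the brightest probe set of each gene, and dimmer sets differed by more or by less. Rpl13a gave −0.15 on a set with a mean of 12.12 and −0.48 on a set with a mean of 7.81. Rpl41 gave −0.33 (mean 11.99) and −0.13 (mean 5.55).

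Both subunits gave close values. The median was −0.10 over 20 small subunit core genes, of which 14 were below 0, and −0.08 over 20 large subunit core genes, of which 15 were below 0. Over the 7 paralogs and like-named genes it was −0.17, with 5 below 0. Among 11 measured of 18 genes mutated in Diamond-Blackfan anaemia, an anaemia of impaired ribosome production, the median was −0.06, and among 4 measured of 8 genes at the polypeptide exit tunnel it was −0.10.

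Rps2, a small subunit protein near the site where mRNA enters, had the smallest p. It read 12.03, 11.60 and 11.81 in the 3 untreated Ifnb+/+ arrays and 11.47, 11.42 and 11.47 in the Ifnb–/– arrays. The groups did not overlap, and replicate 1 of Ifnb+/+ was the highest of the 12 arrays. The difference was −0.35 (SE 0.12), with an adjusted p of 0.187 by limma.

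Rpl10a, the protein of the mobile L1 stalk of the large subunit, read 11.81, 11.36 and 11.55 in Ifnb+/+ and 11.24, 11.16 and 11.21 in Ifnb–/– CGNs. All Ifnb–/– values again lay below all Ifnb+/+ values. The difference was −0.37 (SE 0.13, adjusted p = 0.187 by limma). Rpsa, a small subunit protein also known as the laminin receptor, read 12.15, 11.84 and 12.02 against 11.73, 11.63 and 11.73, a difference of −0.31 (SE 0.11, adjusted p = 0.189 by limma). Of these genes Rpl10a had treated values between 11.19 and 11.51, and Rpsa between 11.81 and 11.95.

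The other genes at an unadjusted p under 0.05 were Rpl8 (−0.36), a large subunit protein near the catalytic centre, Rpl41 (−0.33), a very short peptide at the subunit interface, Rps10 (−0.32), Rps3 (−0.29), which lines the mRNA entry, and Rps19 (−0.24), the gene most often mutated in Diamond-Blackfan anaemia. The paralogs Rps4l (−0.51) and Rpl7l1 (−0.30) completed the 10. Their adjusted p-values by limma lay between 0.187 and 0.235, those of Rps2, Rpl10a and Rpsa included. In the opposite direction the largest differences were those of Rpl22l1 (0.35), Rps3a1 (0.23), Rps25 (0.22), Rpl22 (0.18), Rps24 (0.15), Rps20 (0.15), Rpl39l (0.13) and Rpl37 (0.13). None of these had an unadjusted p under 0.05, and 4 of them (Rps3a1, Rps24, Rps20, Rpl22) were core genes with a mean above 10. On dimmer probe sets (means 8.95 and 8.77), Rpl22 differed by −0.17 and 0.10.

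**Figure D2:**
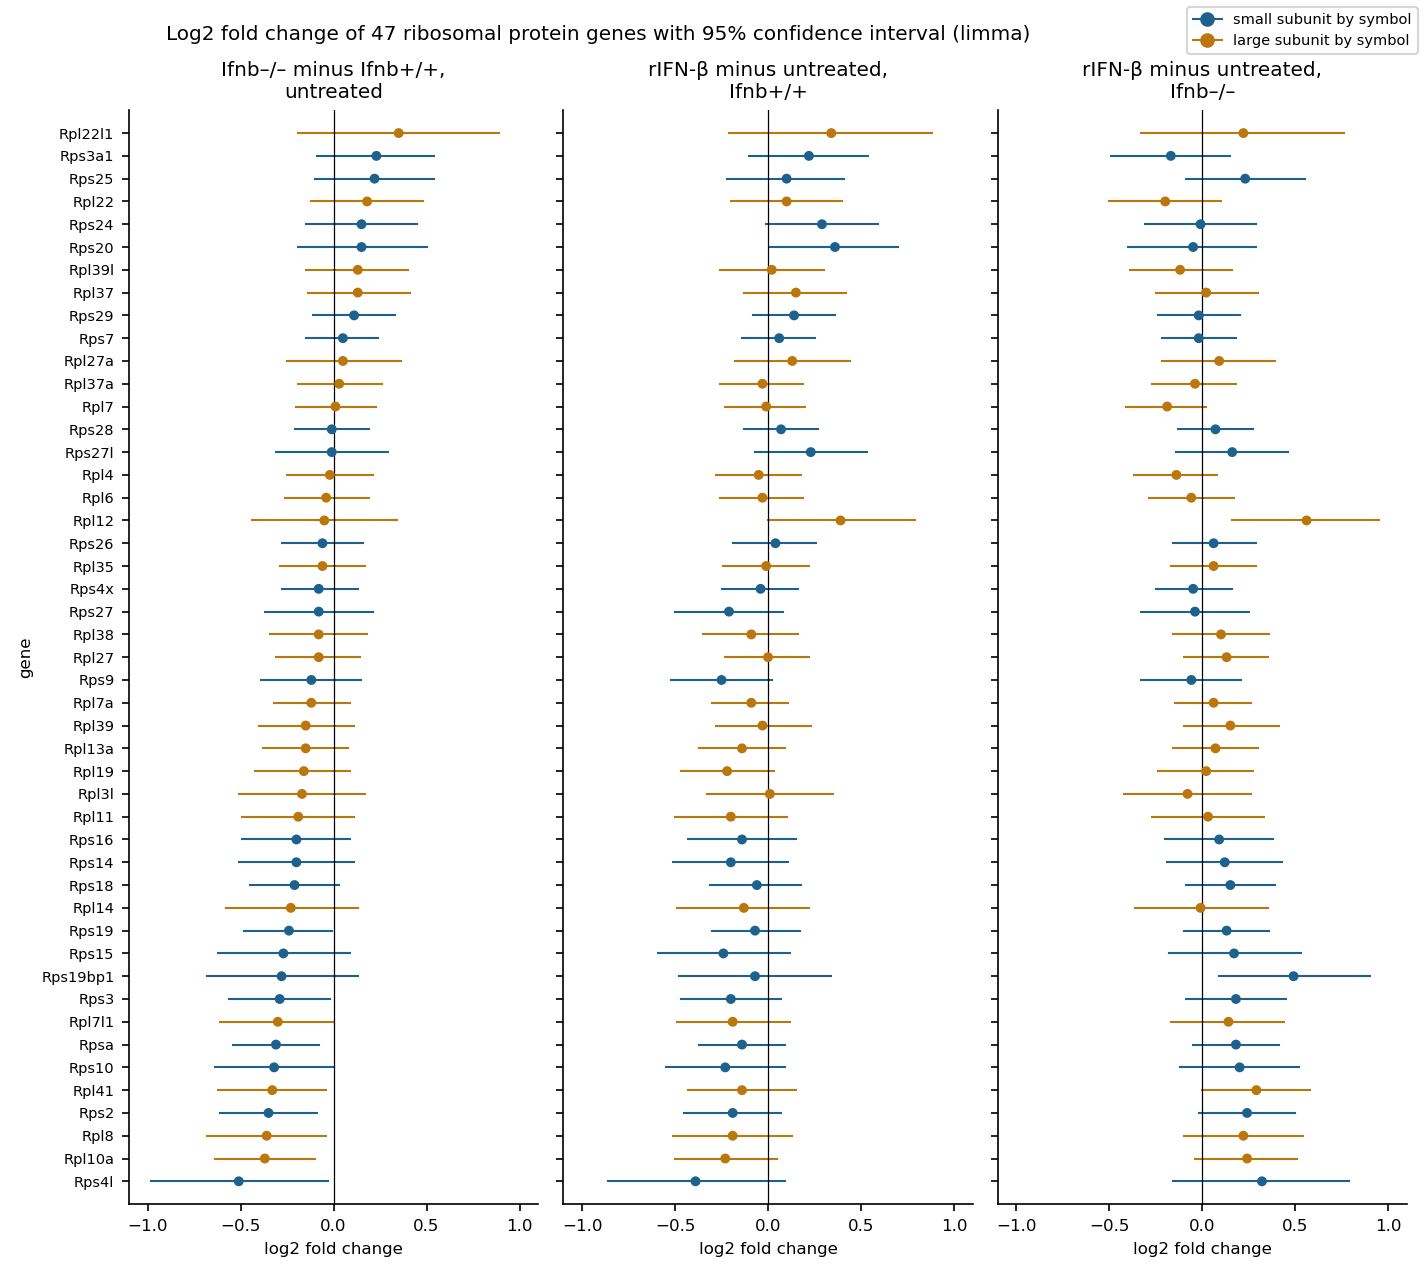
Log2 fold change of each of 47 genes with its 95% confidence interval by limma, for untreated Ifnb–/– minus Ifnb+/+ and for rIFN-β minus untreated in each genotype, in the order of the first comparison. Points are coloured by the subunit in the symbol. Most intervals span 0, and in the first panel the points run from −0.51 (Rps4l) to 0.35 (Rpl22l1).

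Values of Ifnb–/– and Ifnb+/+ arrays did not overlap in 13 of the 47 genes, all lower in Ifnb–/– (27.7%), where 18.1% of all genes were lower and 10.1% higher without overlap. These were Rpl10a, Rpl11, Rpl38, Rpl3l, Rpl7a, Rpl8, Rps18, Rps19, Rps2, Rps3, Rps4l, Rps9 and Rpsa. For Rpl7a and Rpl38, the difference was small, at −0.12 and −0.08. Rpl11, which binds and restrains the p53 regulator Mdm2 when ribosome assembly fails, differed by −0.19 (SE 0.14, adjusted p = 0.411 by limma). Markers of several cell types separated the same arrays without overlap. Summed levels (log2) of 11 granule neuron markers ranged from 14.30 to 14.43 in untreated Ifnb–/– and from 13.89 to 14.11 in untreated Ifnb+/+ CGNs. Those of dividing cells ranged from 9.86 to 10.03 against 10.20 to 10.33, those of endothelial cells from 6.11 to 6.16 against 6.30 to 6.49, and those of erythroid cells, near background, from 3.41 to 3.57 against 3.68 to 3.80. Sums of astrocyte, oligodendrocyte and meningeal fibroblast markers overlapped between these groups. Of the granule neuron markers, Slc17a7 (5.19 against 5.58) and Barhl1 (8.35 against 8.66) had lower means in untreated Ifnb–/– CGNs. Summed microglia markers were lower in Ifnb–/– arrays, as given above. Of these 15 markers 1 was called, where 0.115% of all genes were. It was Trem2, which was lower (log2 difference −1.03, SE 0.14, adjusted p = 0.0164 by limma). Ptprc had a higher mean (5.65 against 5.49). The part of these cell types in the ribosomal protein values was not tested.

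The lower readings were largest against replicate 1 of untreated Ifnb+/+. Without that array, the differences of the same 10 genes lay between −0.36 and −0.17, 1 gene (Rps2, unadjusted p = 0.0499) stayed under an unadjusted p of 0.05 and the smallest adjusted p by limma was 0.576, while the median of the 47 genes was −0.09 and that of all genes −0.05. Without replicate 2 of untreated Ifnb+/+, whose values lay nearest to Ifnb–/–, 7 genes were called lower (Rpl10a, Rpl41, Rpl7l1, Rpl8, Rps10, Rps2 and Rpsa, with adjusted p-values by limma from 0.0227 to 0.0375), and 21.1% of all genes were called.

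Addition of rIFN-β was compared within each genotype. In Ifnb+/+ CGNs, 0 of the 47 genes were called by limma, where 3.14% of all genes were. Before adjustment, at p under 0.05, 2 were higher and 0 lower, where 8.81% of all genes were higher and 11.1% lower. The median log2 difference was −0.05, against −0.03 for all genes, and it was below 0 in 31 of 47 genes (66.0%), where it was in 56.0% of all genes. In 1 gene (Rps7) treated values were higher without overlap and in 1 (Rps9) lower, where 6.67% and 9.28% of all genes were. Rps7 lay between 11.98 and 12.04 untreated and between 12.05 and 12.09 treated, a difference of 0.06, and Rps9 differed by −0.25.

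Rps20, a small subunit head protein, read 10.95, 11.48 and 11.20 in untreated and 11.32, 11.65 and 11.72 in treated Ifnb+/+ CGNs. The groups overlapped, and the untreated values spanned over 0.5. The difference was 0.36 (SE 0.16, adjusted p = 0.238 by limma). Rpl12, which sits at the base of the stalk that recruits translation factors, read 5.47, 5.26 and 5.44 untreated and 5.86, 5.43 and 6.05 treated, a difference of 0.39 (SE 0.18, adjusted p = 0.250 by limma). The next differences above 0 were those of Rpl22l1 (0.34), Rps24 (0.29), Rps27l (0.23), Rps3a1 (0.22), Rpl37 (0.15) and Rps29 (0.14). Those furthest below 0 were Rps4l (−0.39), Rps9 (−0.25), Rps15 (−0.24), Rps10 (−0.23), Rpl10a (−0.23), Rpl19 (−0.22), Rps27 (−0.21) and Rpl11 (−0.20).

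Rps24 was the member whose call depended on the probe set. It had 6 probe sets of its own. The 4 with a mean of at least 10 differed by 0.21 to 0.29 with rIFN-β in Ifnb+/+ CGNs, and a dim one (mean 4.27) differed by 1.38. Where genes were read from the brightest probe set whose name does not end in _x_at, that dim set stood for Rps24 and was called (adjusted p = 0.043 by limma), with 3.16% of all genes called. Without replicate 2 of untreated Ifnb+/+, Rps24 was called on its bright probe set (0.44, adjusted p = 0.0386 by limma), with 16% of all genes called.

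In Ifnb–/– CGNs, rIFN-β gave differences mostly above 0. By limma, 0 of the 47 genes were called, where 1.67% of all genes were. Before adjustment, at p under 0.05, 2 were higher and 0 lower, where 9.16% and 5.44% of all genes were. The median was 0.07 for the 47 genes and 0.07 for all genes, and 31 of 47 differences (66.0%) were above 0, where 63.6% of all genes were. When each array was centred on its median, the median of the 47 genes turned to −0.03. Values did not overlap in 7 genes higher with rIFN-β (Rpl10a, Rpl12, Rpl41, Rps18, Rps2, Rps3, Rpsa) and 3 lower (Rpl4, Rpl7, Rps3a1), that is 14.9% and 6.38%, where 20.3% and 12.6% of all genes did not.

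Rpl12 read 5.15, 5.17 and 5.69 in untreated and 5.75, 6.03 and 5.90 in treated Ifnb–/– CGNs. Replicate 3 of the untreated arrays was near the treated values. The difference was 0.56 (SE 0.18, adjusted p = 0.177 by limma), on a probe set dimmer than a shared one of this gene. Rps19bp1 read 7.09, 6.96 and 7.20 untreated and 7.71, 7.14 and 7.87 treated, a difference of 0.49 (SE 0.19, adjusted p = 0.251 by limma). The next were Rps4l (0.32), Rpl41 (0.29), Rps2 (0.24), Rpl10a (0.24), Rps25 (0.23), Rpl22l1 (0.22) and Rpl8 (0.22). Below 0 were Rpl22 (−0.20), Rpl7 (−0.19), Rps3a1 (−0.17), Rpl4 (−0.14) and Rpl39l (−0.12). Rpl7 read 11.60, 11.51 and 11.55 untreated and 11.31, 11.43 and 11.34 treated (adjusted p = 0.392 by limma), and its other 2 probe sets differed by −0.24 and −0.16. Untreated Ifnb–/– arrays served in this comparison and in that of the untreated genotypes, so the 2 comparisons share them.

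**Figure D3:**
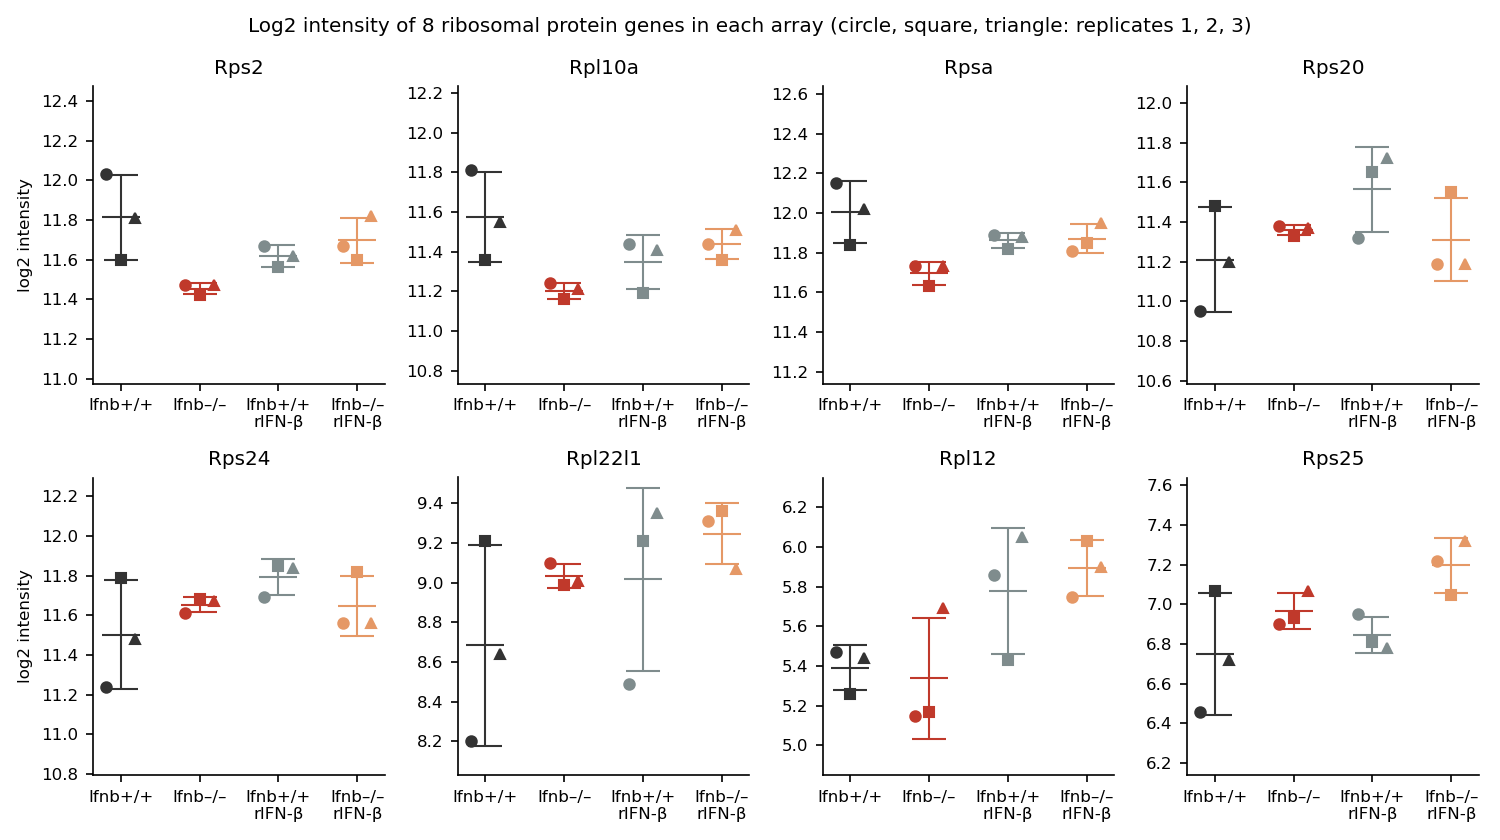
Log2 intensity of 8 genes in each of the 12 arrays (points), with the group mean and SD (bars, n = 3). Every panel spans 1.5 log2 units. Rps2, Rpl10a and Rpsa had their lowest means in untreated Ifnb–/– CGNs, and replicate 1 of untreated Ifnb+/+ was highest in these genes and lowest in Rps20, Rps24, Rpl22l1 and Rps25.

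Treated Ifnb–/– and Ifnb+/+ CGNs were compared next. By limma 0 of the 47 genes were called, where 0.0605% of all genes were, and before adjustment, at p under 0.05, 1 was higher and 0 lower, where 1.88% and 3.06% of all genes were. The median was 0.02 (0.03 for all genes), and 30 of 47 differences (63.8%) were above 0, where 56.9% of all genes were. Without replicate 3 of treated Ifnb–/–, the median turned to −0.02, with 20 above and 27 below 0, and without replicate 2 of treated Ifnb+/+ 23 were above and 24 below 0. Rps25, a small subunit protein that viral internal ribosome entry sites depend on, was the gene under 0.05. It read 6.95, 6.81 and 6.78 in treated Ifnb+/+ and 7.22, 7.05 and 7.32 in treated Ifnb–/– CGNs. It was the 1 gene without overlap, where 4.64% of all genes were higher without overlap. The difference was 0.35 (SE 0.15, adjusted p = 0.926 by limma), on a probe set dimmer than a shared probe set of this gene. Differences of the 47 genes ran from −0.26 to 0.35.

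The effect of rIFN-β was tested for a difference between genotypes as an interaction. By limma 0 of the 47 genes were called, where 0.022% of all genes were, and before adjustment, at p under 0.05, 5 were higher in Ifnb–/– (Rpl10a, Rps2, Rpl41, Rps4l, Rps3) and 0 lower, where 10.1% and 5.21% of all genes were. The interaction was 0.46 for Rpl10a (SE 0.18) and 0.43 for Rps2 (SE 0.17), with adjusted p-values of 0.323 by limma. Its median was 0.15 for the 47 genes and 0.11 for all genes, and 29 of 47 values (61.7%) were above 0, where 63.5% of all genes were. The untreated arrays enter this test too, and all 5 genes read lower in untreated Ifnb–/– than in untreated Ifnb+/+ CGNs.

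Between replicates of untreated Ifnb+/+, ribosomal protein genes differed in both directions. In untreated Ifnb+/+, replicate 1 exceeded replicate 2 in 28 genes and was below it in 19. By over 0.3, it was higher in 16 genes, led by Rps10 (0.57), Rpl7l1 (0.56), Rps4l (0.55), Rpl8 (0.52), Rpl41 (0.50) and Rps15 (0.49), and lower in 8, which were Rpl22l1 (−1.0), Rps25 (−0.61), Rps3a1 (−0.59), Rps24 (−0.56), Rps20 (−0.53), Rpl22 (−0.49), Rps27l (−0.47) and Rpl37 (−0.35). Replicate 3 lay between them in all 24 of these genes, which were picked by this difference. The same counts were not made over all genes. Over all 18193 genes, the difference of replicates 1 and 2 correlated with 1 minus 3 at r = 0.92 and with 2 minus 3 at −0.85. Over the 47 genes these were 0.95 and −0.96. The median absolute deviation of replicate 1 was 0.26 in the 47 genes and 0.28 in all genes, so its distance was not particular to ribosomal protein genes.

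A like split appeared in treated Ifnb–/– CGNs. Replicate 3 exceeded replicate 2 in 14 of the 16 genes and in 2 of the 8 (Rps25 and Rpl37). Over the 47 genes, the difference of replicate 2 minus replicate 3 correlated with that of replicate 1 minus replicate 2 in untreated Ifnb+/+ at r = −0.63, and over all 18193 genes at r = −0.37. In treated Ifnb+/+ CGNs the correlation for replicate 1 minus replicate 2 was 0.64 over the 47 genes and 0.29 over all genes. Other pairs of treated arrays gave smaller correlations over the 47 genes. In treated Ifnb+/+ they were 0.53 (1 minus 3) and −0.13 (2 minus 3). In treated Ifnb–/– they were 0.52 (1 minus 2) and −0.32 (1 minus 3). Genes are not independent replicates, and no test was made. In untreated Ifnb–/– the same correlations ran from −0.09 to 0.20 over the 47 genes. There, most genes moved the same way by a small amount. Replicate 1 exceeded replicate 2 in 40 of 47 genes (median 0.10), and replicate 2 exceeded replicate 3 in 4 (median −0.08). In treated Ifnb–/–, replicate 1 exceeded replicate 3 in 6 genes (median −0.08). Replicate 2 of treated Ifnb–/– was also the array with a Mki67 value of 7.46, and its astrocyte markers had a median deviation of 0.75. The part of these markers was not tested.

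**Figure D4:**
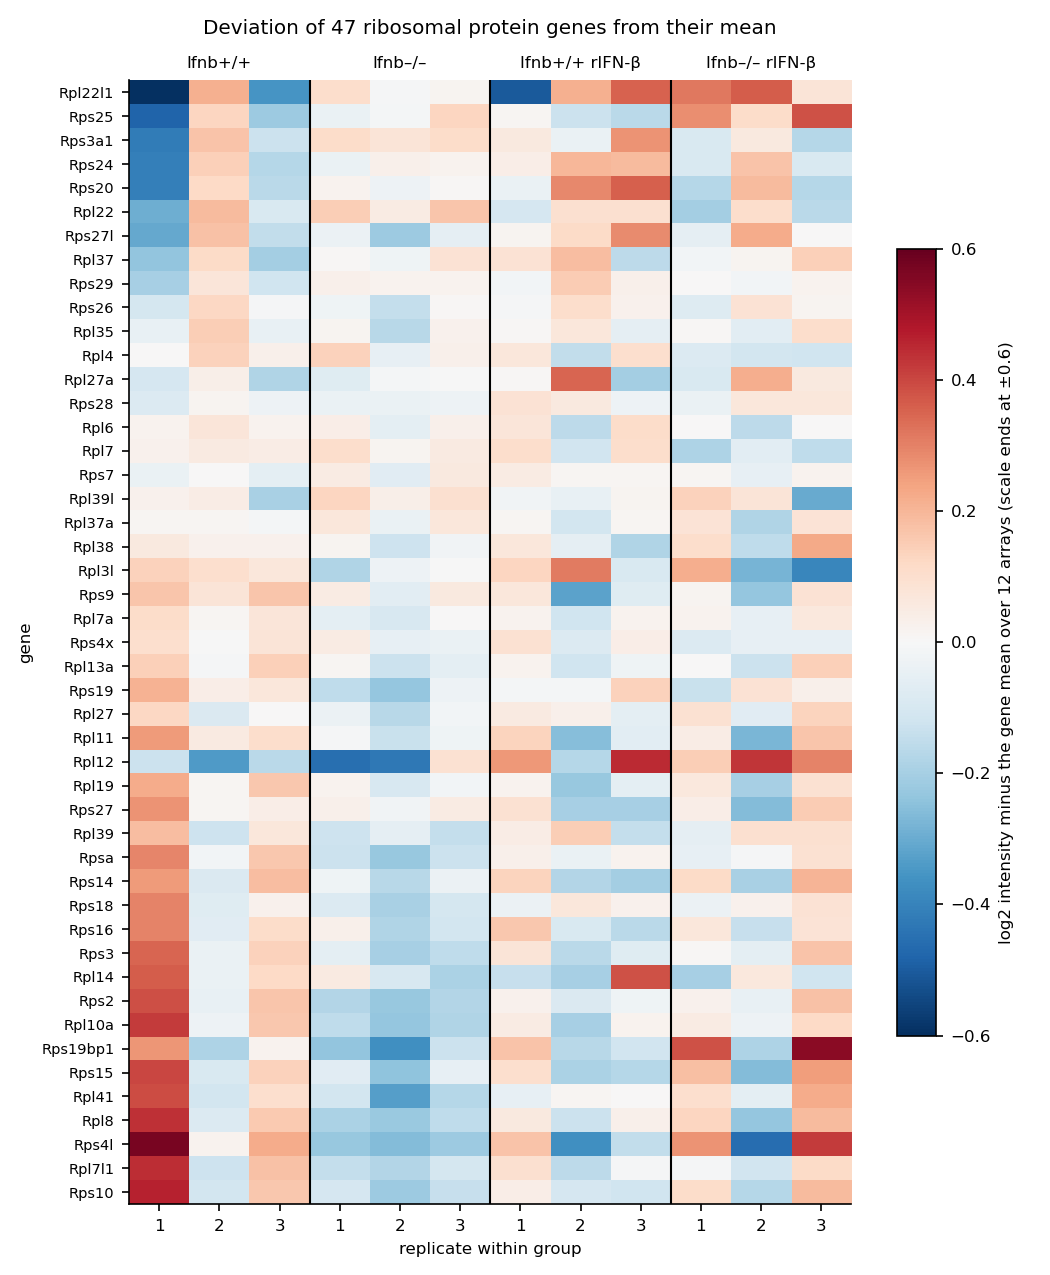
Deviation of each of 47 genes from its mean over 12 arrays (log2), with genes ordered by replicate 1 minus replicate 2 of untreated Ifnb+/+. Genes at the top were low and genes at the bottom high in replicate 1 of untreated Ifnb+/+, where 32 of 47 genes were above their mean.

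**Figure D5:**
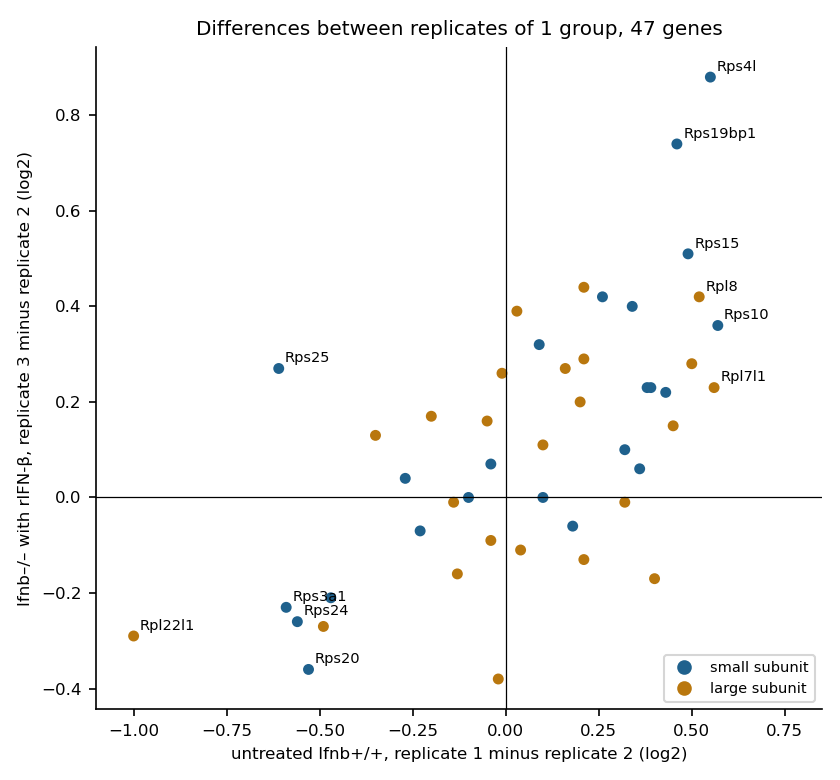
Difference between replicates of untreated Ifnb+/+ (1 minus 2) against that of treated Ifnb–/– (3 minus 2) for 47 genes, in log2 units, coloured by the subunit in the symbol. Of 16 genes above 0.3 on the horizontal axis, 14 were above 0 on the vertical axis, and Rps25 and Rpl37 were above 0 among the 8 below −0.3.

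Over all members, the median deviation per array was 0.12, 0.01 and 0.04 in untreated Ifnb+/+, −0.03, −0.10 and −0.02 in untreated Ifnb–/–, 0.05, −0.08 and 0.00 in treated Ifnb+/+ and 0.01, −0.05 and 0.09 in treated Ifnb–/–. Untreated Ifnb+/+ and Ifnb–/– arrays did not overlap in this median, while treated arrays of either genotype spanned both sides of 0. Over all genes it was 0.11, −0.03 and 0.01 in untreated Ifnb+/+ and −0.04, −0.05 and −0.04 in untreated Ifnb–/–. These did not overlap either, so the separation was not particular to the ribosomal protein genes.

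Paralogs did not always follow their stem genes. Rpl22l1 read 8.20, 9.21 and 8.64 in untreated Ifnb+/+, 9.10, 8.99 and 9.01 in untreated Ifnb–/–, 8.49, 9.21 and 9.35 in treated Ifnb+/+ and 9.31, 9.36 and 9.07 in treated Ifnb–/–, the widest range of the 47. With rIFN-β its difference was 0.34 in Ifnb+/+ and 0.22 in Ifnb–/–, where Rpl22 gave 0.10 and −0.20, none of them called. The sign for Rpl22 in Ifnb+/+ depended on the probe set. In the same order, the Rpl22 set with a mean of 8.95 gave −0.46 and −0.32. That with a mean of 8.77 gave −0.0 and −0.24. Rpl22 read 10.34, 10.82 and 10.54 in untreated Ifnb+/+ and 10.78, 10.68 and 10.80 in untreated Ifnb–/– CGNs. Rps27l, a p53 target, gave 0.23 and 0.16 with rIFN-β, and Rps27 −0.21 and −0.04 on a probe set with a mean of 5.28. Rps4l gave −0.51 between untreated genotypes, and the X-linked Rps4x −0.08. Rpl7l1 gave −0.30, and Rpl7 0.01. No difference between a paralog and its stem was tested.

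Ifnb1 lies on chromosome 4 (GRCm38.p6), as do Rpl11 (chr4:136049354-136053393), Rpl22 (chr4:152324436-152334082) and Rps20 (chr4:3831584-3835655). Their differences between untreated genotypes were −0.19, 0.18 and 0.15.

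Other genes of ribosome production and translation were set beside the members. Of 15 measured of 16 translation factors and related genes with TOP mRNAs, 1 was called lower with rIFN-β in each genotype. It was Eif4b, an initiation factor that assists the helicase eIF4A. Of all genes, 1.36% were called lower in Ifnb+/+ and 0.742% in Ifnb–/–. Before adjustment, at p under 0.05, 2 were higher and 5 lower in Ifnb+/+, where 8.81% and 11.1% of all genes were. In Ifnb–/– 1 was higher and 2 lower (9.16% and 5.44% of all genes). Between untreated genotypes 1 was higher and 5 lower (8.4% and 12.8% of all genes). Eif4b read 9.92, 9.71 and 9.89 in untreated and 9.37, 9.20 and 9.14 in treated Ifnb+/+, and 9.73, 9.68 and 9.74 in untreated and 9.22, 9.25 and 9.26 in treated Ifnb–/– CGNs. Treated values lay below untreated values in both genotypes. Eif4b fell by 0.60 on the log2 scale (SE 0.10, adjusted p = 0.00709 by limma) in Ifnb+/+ and by 0.47 (SE 0.10, adjusted p = 0.0429) in Ifnb–/– CGNs. Without each array in turn, the call held 12 of 12 times in Ifnb+/+ and 4 of 12 times in Ifnb–/–, where adjusted p-values by limma reached 0.18. Under 10 other probe set choices, filters, normalizations or tests, the call held 8 times in each genotype.

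Of 19 measured regulators, 1 rose and 1 fell with rIFN-β in Ifnb+/+, where 1.78% of all genes were called higher and 1.36% lower. Larp1, which binds TOP mRNAs, rose by 0.68 (SE 0.14, adjusted p = 0.0232 by limma) from 7.52, 8.03 and 7.79 to 8.35, 8.44 and 8.59. Maf1, a repressor of RNA polymerase III, fell by 0.87 (SE 0.21, adjusted p = 0.0436 by limma). The call of Larp1 held without each of 8 of 12 arrays and that of Maf1 without each of 4. Larp1 was not called without replicate 1 or 3 of untreated or replicate 2 or 3 of treated Ifnb+/+ CGNs. Between untreated genotypes none was called, and the smallest adjusted p was that of Eif4ebp1, an mTOR target that blocks cap-dependent initiation (−0.69, SE 0.13, adjusted p = 0.069 by limma).

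Of 60 ribosome assembly genes, 1 rose with rIFN-β in each genotype. It was Ddx21, a nucleolar helicase, in Ifnb+/+ (0.79, SE 0.19, adjusted p = 0.044 by limma) and Bysl, a small subunit assembly factor, in Ifnb–/– CGNs (1.04, SE 0.22, adjusted p = 0.0332). Over all genes, 1.78% were called higher in Ifnb+/+ and 0.929% in Ifnb–/–. Before adjustment, p was under 0.05 for 14 genes above and 4 below 0 in Ifnb+/+ (median 0.05). Of all genes, 8.81% were above and 11.1% below 0 there (median −0.03). In Ifnb–/–, p was under 0.05 for 21 above and 0 below 0 (median 0.20). Of all genes, 9.16% were above and 5.44% below 0 in Ifnb–/– (median 0.07). Between untreated genotypes, 4 were above and 15 below 0 at this threshold (median −0.08). Of all genes, 8.4% were above and 12.8% below 0 in that comparison (median −0.09). Of 76 mitochondrial ribosomal protein genes, 1 rose with rIFN-β in Ifnb–/– (Mrpl22, 0.56, SE 0.13, adjusted p = 0.0499 by limma), and before adjustment p was under 0.05 for 18 genes above and 0 below 0, with a median of 0.21, against 0.07 for all genes. In Ifnb+/+, 4 were above and 8 below 0 (median −0.15, against −0.03 for all genes). Between untreated genotypes, which share the untreated Ifnb–/– arrays, 2 were above and 16 below 0 (median −0.23, against −0.09 for all genes). Shares of all genes at this threshold are those given above for each comparison. Without each array in turn, Ddx21 and Mrpl22 were called 2 of 12 times each and Bysl 5 of 12. The medians of the cytosolic ribosomal protein genes in the same comparisons were −0.05 in Ifnb+/+ and 0.07 in Ifnb–/–.

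Of the 3 measured stalk and fusion subunits, which also belong to the cytosolic ribosome, none was called in any comparison by limma. Rplp0, the core of the stalk, had an unadjusted p of 0.0214 with rIFN-β in Ifnb+/+ (−0.33, SE 0.12, adjusted p = 0.176), and was the 1 gene of the 3 under 0.05 in any comparison. Between untreated genotypes the differences were −0.30 for Fau, −0.26 for Rplp0 and −0.21 for Rplp2. Of 17 measured initiation genes, none was called in any comparison by limma. Eif3b differed by −0.60 (adjusted p = 0.154 by limma) and Eif4a2 by 0.52 (adjusted p = 0.184 by limma) between untreated genotypes. There, before adjustment, p was under 0.05 for 3 genes above and 4 below 0. Of all genes, 8.4% were above and 12.8% below 0 at this threshold.

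Counts of called members depended on the weighting of arrays and on the test. With array weights in limma, 32 of 47 genes were called between untreated genotypes (10 higher, 22 lower), 10 with rIFN-β in Ifnb+/+, 12 with rIFN-β in Ifnb–/– and 19 for the interaction. With these weights 59.8%, 30.8%, 28.1% and 34.6% of all genes were called in the same comparisons. The methods' test, unadjusted and applied to 2 groups at a time, gave 7 genes lower between untreated genotypes, 5 higher and 1 lower with rIFN-β in Ifnb–/–, and 1 higher between treated genotypes, where it gave 12.1%, 21.7% and 3.91% of all genes.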

How the data were processed

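RNA of cultured CGNs was measured on 12 Affymetrix mouse genome arrays (4 groups of 3). The authors normalized the arrays by quantile normalization and RMA and deposited log2 intensities for 45037 probe sets, which were used as deposited. RMA is named, with no version, in the submitters' processing notes too. Probe sets were named from the platform annotation: 34945 had 1 gene, 932 several and 9160 none. Each gene was read from its brightest probe set with 1 gene, over all 12 arrays, which gave 18193 genes. Array medians lay between 4.33 and 4.42.

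All 4 groups were fitted by group means with lmFit and eBayes of limma 3.58.1 in R 4.3.3, with 8 residual degrees of freedom and no low-value filter, for 5 comparisons. P-values were adjusted over all 18193 genes by the Benjamini-Hochberg method in each comparison, and genes under 0.05 were called. Nothing in the sources states that triplicates came from separate animals or cultures, so p-values measure the spread between these arrays, which may be technical. The 3 arrays per group limit the precision, and arrays give no counts or depth. Summaries were made with pandas 2.3.3 in Python 3.11.15, and scripts were tested on simulated data.

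Members and gene lists were chosen with earlier results of these data known. Members named were those called, per comparison the 8 with the largest and the 8 with the smallest log2 fold change, the 8 with the highest and the 8 with the lowest mean, paralogs beside their stems, and members on the chromosome of Ifnb1. From each list of other ribosome genes, the 3 with the smallest p in a comparison could be named, besides Ifit1 and Ifnb1. Members named for non-overlapping groups or for differences between replicates, and those shown with sequences, were chosen after their values were seen. Alternatives were other probe set choices, filters, normalizations, array weights, the methods' test, compared groups alone, the replicate block and leaving out each array.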

Additional observations from a re-analysis of the deposited data

How the results depend on the processing

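In the 5 comparisons, counts of called ribosomal protein genes (0 each) and their medians moved as follows. With array weights 32 genes were called for the untreated genotypes, 10 for rIFN-β in Ifnb+/+, 12 for rIFN-β in Ifnb–/– and 19 for the interaction; estimation of these weights stopped before its convergence tolerance was met. The methods' test without adjustment gave 7 genes between untreated genotypes, 1 between treated genotypes and 6 with rIFN-β in Ifnb–/–. Limma without adjustment gave 10, 2, 2, 1 and 5 genes, in the order of the report. Probe sets not ending in _x_at gave 1 with rIFN-β in Ifnb+/+. Centring each array on its median moved the median of the members to −0.00 for the untreated genotypes, −0.03 for rIFN-β in Ifnb–/– and 0.08 for the interaction. Quantile normalization once more moved that of rIFN-β in Ifnb+/+ from −0.05 to −0.01. Adding shared probe sets, an alternative chosen after seeing the data, moved the median of the interaction to 0.08; a floor of 10 on the mean of the members was also chosen then. The cause of these differences was not tested.

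Leaving out each array in turn gave 0 to 7 called members for the untreated genotypes, 0 to 1 for rIFN-β in Ifnb+/+ and 0 in the other comparisons. Their medians ran from −0.13 to −0.07, −0.10 to −0.03, 0.04 to 0.10, −0.02 to 0.05 and 0.10 to 0.20, in the order of the report. The median between treated genotypes fell to −0.02 without replicate 3 of treated Ifnb–/– and to −0.00 without replicate 2 of treated Ifnb+/+. Calls among all genes ran from 0 to 3846, 241 to 2905, 83 to 705, 0 to 203 and 0 to 1237.

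With the replicate number as a block, 0 members were called in each comparison, with medians of −0.08, −0.05, 0.07, 0.02 and 0.15. Over all genes the block gave 16 calls between untreated genotypes, where the fit without it gave 21. For treatment it gave 848 calls in Ifnb+/+ (571 without it) and 266 in Ifnb–/– (304 without it). Deviations of same-numbered arrays correlated at −0.50 to 0.43 (median 0.06) in 18 pairs from all groups, 5 of them above 0.1. In 36 pairs with different numbers the median was −0.04, with 5 above 0.1. Between untreated and treated arrays of 1 genotype, same-numbered pairs gave 0.30, 0.16 and 0.06 in Ifnb+/+ and 0.07, 0.07 and 0.05 in Ifnb–/–. These values do not settle whether the numbers pair the arrays, and the main fit had no block.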
